A study of Mus musculus with 19 samples.

Results

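The comparison described here sets 4 liver libraries with the treatment label WSD+beta-Glucan against 5 with the label CTRL+beta-Glucan. It therefore reads the effect of WSD in mice that all received beta-glucan. The 9 libraries were chosen by their treatment labels alone, out of 19 in the series. The study, by its title, concerns dietary oat beta-glucan, gut microbes and the progression of fatty liver disease. All 19 libraries are labelled as liver of male mice with the genotype C57Bl/J6, at 24 weeks, and the labels do not say whether these are weeks of age or of feeding. The labels give the groups only as CTRL, CTRL+beta-Glucan, WSD and WSD+beta-Glucan. WSD, a common abbreviation of Western-style diet, is not spelled out there, and neither the composition of the diets nor the dose of beta-glucan is given in the labels. The remaining 10 libraries, 5 of WSD and 5 of CTRL, carry no beta-glucan and share no library with the main comparison, and they are used only to show where the effect differs. Whether every library is from its own mouse is not stated in the labels, and the p-values then cover only the spread between these samples.

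A diet rich in fat and sugar loads hepatocytes with triglyceride and cholesterol. Monocytes then enter the liver and mature into macrophages that take up lipid, and stellate cells, the vitamin A-storing fibroblasts of the liver, can lay down collagen. Cholesterol synthesis is controlled by SREBP2, a transcription factor that is held back in the endoplasmic reticulum when sterols are plentiful. Beta-glucan of oats is a soluble fibre that gut bacteria ferment, and Dectin-1, the product of Clec7a, is a receptor for beta-glucans on myeloid cells.

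Depth ran from 17253823 to 23307744 estimated reads in the 9 libraries. WSD+beta-Glucan libraries held at least 10 counts for 13213 ± 341 genes (SD, n = 4) and CTRL+beta-Glucan libraries for 12256 ± 321 (SD, n = 5), a difference with p = 0.0159 in a two-sided exact permutation test, which cannot go lower with 4 against 5 libraries. The 50 most abundant genes took 36.2 ± 1.31% of the reads with WSD and 41.5 ± 2.13% without it (exact permutation p = 0.0159, two-sided). Genes of the major urinary proteins, which the liver of male mice secretes in bulk, took 3.38 ± 1.70% against 6.80 ± 2.46% (exact permutation p = 0.0476, two-sided). Over the 5 library measures tested, the adjusted values were 0.0398, 0.0398 and 0.0793. A principal component analysis of log2 CPM over the 9 libraries gave a first component with 52.0% of the variance, on which the WSD+beta-Glucan libraries lay between -57.7 and -34.4 and the CTRL+beta-Glucan libraries between 30.1 and 53.5. The second component, with 14.1%, set apart 3 libraries, at 16.8 to 47.4 against -33.1 to -5.2 for the others. These are replicate 1 of WSD+beta-Glucan together with replicates 1 and 2 of CTRL+beta-Glucan. Their titles start with 37, 39 and 40. A further number in the titles is 2, 3 and 1 for these, 2 again for WSD replicate 1, and 6 to 20 for the others. The labels do not say what this number means. Values without the 3 libraries are given below where they change a call or move a count of at least 3 calls by over 1.5 times. Levels are given as CPM after scaling by trimmed means (TMM), in replicate order.

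WSD in beta-glucan-fed mice changed 4656 of 13594 tested genes (34.3%; edgeR quasi-likelihood test, Benjamini-Hochberg adjusted p under 0.05). Of these, 2593 rose (19.1% of the genes tested) and 2063 fell (15.2%). Large changes were mostly increases, with 1558 genes at least 2-fold higher (11.5%) and 203 at least 2-fold lower (1.49%). At an unadjusted p under 0.05 the count was 6074 (44.7%). The libraries of both groups did not overlap at all for 3419 genes (25.2%), 1964 of them higher and 1455 lower. The split between higher and lower depends on the scaling: with library totals in place of TMM the median log2 fold change of all genes moved from -0.01 to 0.28, and 93% of the calls were higher instead of 55.7%. Without the libraries 37, 39 and 40, 2174 genes rose and 1240 fell, and 3094 of these 3414 had been called in the same direction with all libraries.

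**Figure D1:**
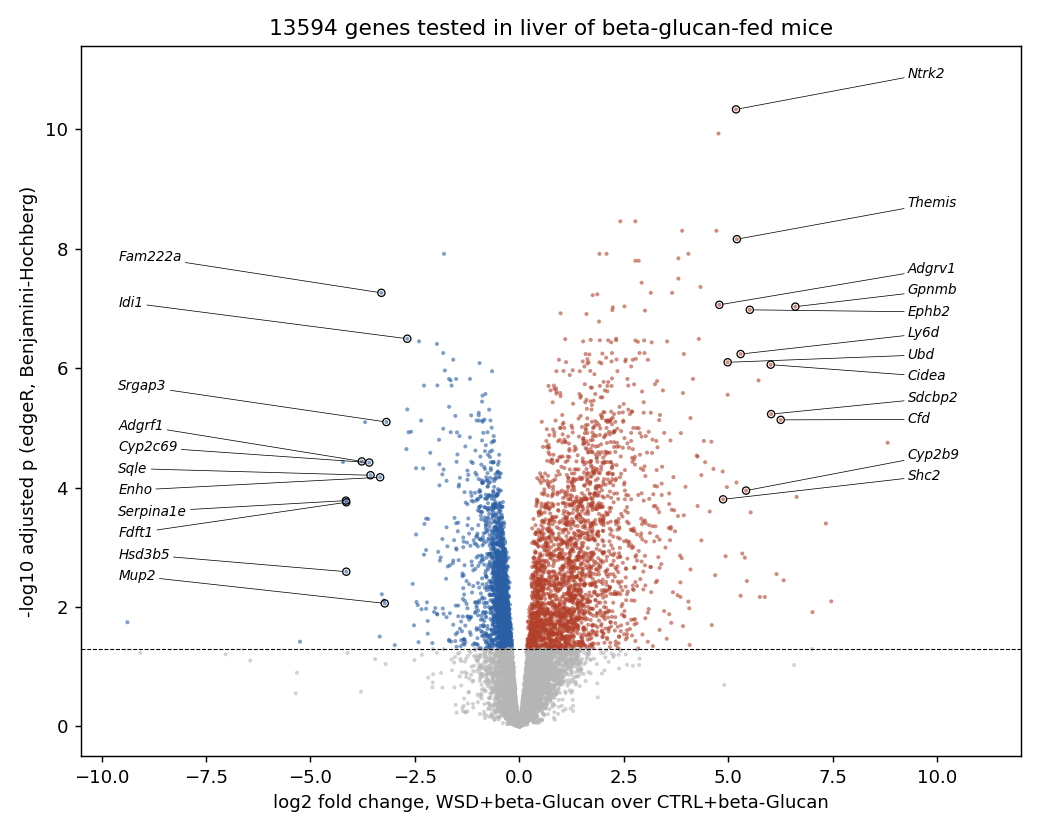
Each point is 1 of 13594 genes, with the log2 fold change of WSD+beta-Glucan over CTRL+beta-Glucan on the horizontal axis and the -log10 adjusted p (edgeR) on the vertical axis. Red points rose and blue points fell past an adjusted p of 0.05 (dashed line), and circles mark the 12 highest and 11 of the 12 lowest genes, which the text describes, of which Ntrk2 has the smallest adjusted p.

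The 12 largest increases, among protein-coding genes with at least 2 CPM on average and no overlap between the libraries, ranged from log2 4.79 to 6.61. Gpnmb, a membrane glycoprotein of lipid-laden macrophages, measured 17.8, 45.4, 44.9 and 14.2 CPM in the WSD+beta-Glucan libraries and 0.144, 0.683, 0.42, 0.278 and 0.0495 CPM in the CTRL+beta-Glucan libraries. Every library with WSD was above every library without it, and the log2 fold change was 6.61 ± 0.50 (SE; adjusted p = 9.29e-08), set against only 27 reads in the CTRL+beta-Glucan group. Cidea, which fuses lipid droplets and is scarce in lean liver, measured 42.9, 46.7, 58.6 and 47.4 CPM with WSD and 0.361, 0.248, 2.1, 0.278 and 0.791 CPM without it. The 4 WSD libraries were close together, and the change was 6.02 ± 0.55 on the log2 scale (adjusted p = 8.71e-07). Cfd, the complement factor also known as adipsin and best known from fat cells, stood at 63.3, 53.7, 21.8 and 68.1 CPM against 0.289, 0.434, 1.86, 0.51 and 0.297 CPM. Its log2 fold change was 6.26 ± 0.69 (adjusted p = 7.32e-06). Of the 4 tested markers of mesothelium and fat cells, Cfd included, 2 rose and none fell, and 4 rose with library totals. Of all genes 19.1% rose. Summed over the 10 markers of the list, tested or not, levels were 859 to 1751 CPM with WSD and 251 to 667 CPM without it. The part of admixed fat tissue in the Cfd values was not tested.

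Ntrk2, the receptor TrkB of the neurotrophin BDNF, had the smallest p of all genes tested. Its values were 21.3, 17.7, 19.9 and 15.6 CPM with WSD and 0.289, 0.559, 0.36, 0.696 and 0.544 CPM without it, a log2 change of 5.19 ± 0.24 (adjusted p = 4.6e-11). The groups lay far apart relative to their spread. Themis, known as a T cell signalling protein, rose from 0.351 ± 0.22 to 13.5 ± 1.52 CPM (SD; log2 5.21), Ly6d, a surface protein anchored by lipid, from 3.4 ± 0.655 to 134 ± 69.4 CPM (log2 5.30), and Ephb2, an ephrin receptor kinase, from 0.404 ± 0.183 to 18.1 ± 11.2 CPM (log2 5.52). Ubd, a ubiquitin-like modifier induced by inflammatory cytokines, rose by log2 4.99 and Adgrv1, an adhesion receptor, by 4.79. Sdcbp2 (log2 6.03), a scaffold protein with PDZ domains, and Shc2 (log2 4.88), an adaptor of receptor kinases, rested on 9 and 13 reads in the whole CTRL+beta-Glucan group. Cyp2b9, a cytochrome P450 enzyme that is low in male liver, measured 63.6, 12.2, 6.23 and 25 CPM with WSD and 0.0722, 0, 0.0601, 1.02 and 1.58 CPM without it. Reads of Cyp2b9 may be split with its close relatives, so its log2 fold change of 5.43 ± 0.82 is uncertain in size.

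The 11 decreases described here, among the 12 largest by the same criteria, ranged from log2 -4.15 to -2.68, and 3 of them belong to cholesterol synthesis (Fdft1, Sqle and Idi1, described below). Serpina1e, a copy of the alpha-1-antitrypsin gene, measured 171, 944, 236 and 758 CPM with WSD and 13918, 13386, 6298, 7548 and 5588 CPM without it. The lowest library without WSD was still above the highest with it, and the log2 fold change was -4.15 ± 0.66 (adjusted p = 0.000165). Hsd3b5, a steroid dehydrogenase of male liver, stood at 0, 3.1, 0.519 and 0.379 CPM against 35.1, 27.9, 5.05, 19 and 5.54 CPM (log2 -4.14 ± 0.92, adjusted p = 0.00256). Enho, which encodes the secreted peptide adropin, fell from 21.4 ± 15.4 to 2.11 ± 0.257 CPM (log2 -3.33, adjusted p = 6.71e-05). Fam222a fell from 9.46 ± 1.5 to 0.949 ± 0.402 CPM (log2 -3.30, adjusted p = 5.45e-08). Mup2 (log2 -3.22), Cyp2c69 (log2 -3.59), Adgrf1 (log2 -3.77) and Srgap3 (log2 -3.18), a regulator of small GTPases, complete the group. Mup2, Serpina1e and Cyp2c69 each have near-identical copies among which reads can be split, and the call of Mup2 was lost without the libraries 37, 39 and 40 (log2 -1.79, adjusted p = 0.162).

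**Figure D2:**
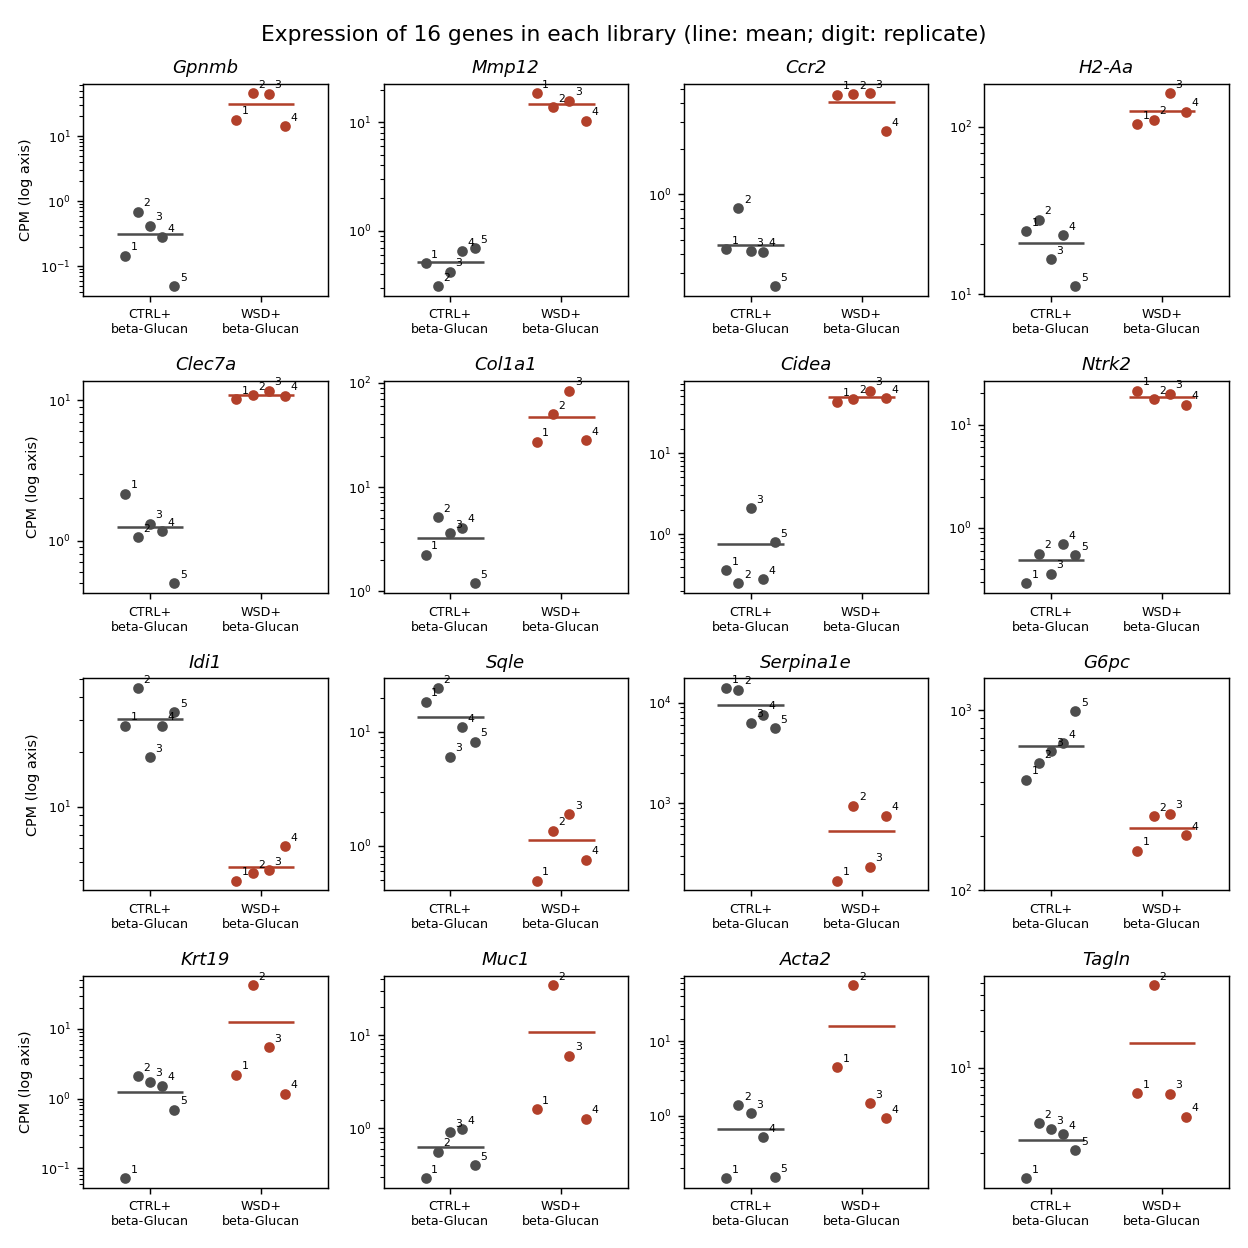
CPM of 16 genes in each library of CTRL+beta-Glucan (grey, n = 5) and WSD+beta-Glucan (red, n = 4), on a log axis for each gene, with the group mean as a line and the replicate number beside each point. The first 12 genes do not overlap between groups, and for Krt19, Muc1, Acta2 and Tagln the point of WSD+beta-Glucan replicate 2 lies far above all others.

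Genes of monocytes and macrophages rose almost as a whole list: 23 of 24 were higher and none was lower, with a median log2 fold change of 1.98, where 19.1% of all genes rose and the median was -0.01. The summed level of the list was 816 to 972 CPM with WSD and 122 to 392 CPM without it. In bulk RNA more cells of a type and more RNA per cell cannot be told apart. Ccr2, the receptor through which monocytes leave the blood, measured 4.56, 4.59, 4.67 and 2.61 CPM with WSD and 0.433, 0.807, 0.42, 0.417 and 0.247 CPM without it (log2 3.15 ± 0.25, adjusted p = 5.45e-08). Mpeg1, a pore-forming protein of macrophages, measured 116, 104, 110 and 121 CPM against 25.8, 27.6, 15.5, 17 and 12.9 CPM (log2 2.52 ± 0.20, adjusted p = 9.2e-08). Neither gene overlapped between groups. The general macrophage markers Cd68 (log2 2.33 ± 0.32) and Adgre1 (log2 2.01 ± 0.31), which encodes F4/80, also rose.

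Lipid-associated macrophages are the macrophages that gather lipid in fatty liver and fat tissue and are defined by the receptor Trem2. Of their 20 genes, 16 rose and none fell, with a median of 2.47. The summed levels overlapped, at 23949 to 31808 CPM with WSD and 20665 to 29039 CPM without it. Trem2 measured 7.41, 11.7, 13.9 and 4.46 CPM with WSD and 0.433, 1.12, 0.36, 0.278 and 0.247 CPM without it (log2 4.30 ± 0.38, adjusted p = 3.23e-07). Mmp12, the elastase of macrophages, measured 18.5, 13.8, 15.8 and 10.3 CPM against 0.505, 0.31, 0.42, 0.649 and 0.692 CPM (log2 4.77 ± 0.24, adjusted p = 1.17e-10). In both genes every library with WSD lay far above every library without it. Lpl, lipoprotein lipase, stood at 90.8, 80.6, 80.4 and 51.8 CPM against 12.8, 12.7, 11.2, 9.64 and 9.15 CPM (log2 2.78 ± 0.17), and the actin-capping Capg rose by log2 2.78 ± 0.21. Plin2, the lipid droplet coat protein, is named here as 1 of the 4 members that were not called; it was already high without WSD, with 1358, 903, 1736, 1106 and 1587 CPM against 1121, 1196, 1290 and 1143 CPM with it (log2 -0.17 ± 0.14, adjusted p = 0.36).

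Resident Kupffer cells, the macrophages already present in the healthy liver, were represented by 14 genes, of which 5 rose and none fell (median 0.45), and 2 rose without WSD+beta-Glucan replicate 1. Timd4, which marks resident cells of embryonic origin, was measured at 5.27, 3.14, 1.25 and 2.15 CPM with WSD and 3.25, 2.3, 3.36, 1.53 and 1.04 CPM without it. The groups overlapped and the log2 difference was 0.37 ± 0.47 (adjusted p = 0.577). Clec4f, a lectin of Kupffer cells, overlapped as well, at log2 0.92 ± 0.39 (adjusted p = 0.0775). Clec4f was called without the libraries 37, 39 and 40 (log2 1.30, adjusted p = 0.0298), without CTRL+beta-Glucan replicate 1 alone (log2 1.25, adjusted p = 0.0202) and with library totals (log2 1.24, adjusted p = 0.0126). It was also called with the libraries 37, 39 and 40 as a term (log2 1.16, adjusted p = 0.0096). Cd5l, a secreted protein of tissue macrophages, rose from 41.7 ± 23.1 to 151 ± 30.8 CPM (SD; log2 1.86 ± 0.35, adjusted p = 0.000589), and Il18bp, a decoy receptor of interleukin 18, by log2 1.56 ± 0.21. Endothelial markers changed less, with 4 of 24 higher, close to the 19.1% of all genes, and none lower. The count was 2 without the libraries 37, 39 and 40, 9 with library totals and 1 to 5 when each library was left out, with 1 without CTRL+beta-Glucan replicate 1 and 2 without CTRL+beta-Glucan replicate 3 or WSD+beta-Glucan replicate 1, 2 or 4. Stab2, a scavenger receptor of sinusoidal endothelium, rose by log2 0.87 ± 0.17.

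Antigen presentation on MHC class II was higher throughout, with 10 of 10 genes called (median 2.42; 8 of 10 without the libraries 37, 39 and 40). H2-Aa, an alpha chain, measured 103, 110, 158 and 123 CPM with WSD and 23.7, 27.8, 16.2, 22.5 and 11.2 CPM without it. The lowest library with WSD was over 3 times the highest without it, and the log2 fold change was 2.61 ± 0.27 (adjusted p = 1.95e-06). Ciita, the transactivator of the class II genes, rose from 0.652 ± 0.354 to 4.35 ± 0.705 CPM (log2 2.72 ± 0.27), H2-Eb1 by log2 2.70 ± 0.30 and H2-Ab1 by 2.49 ± 0.29. In TPM, which allows genes of different length to be compared, H2-Aa, H2-Eb1 and H2-Ab1 averaged 158, 149 and 136 with WSD and 20.3, 17.9 and 18.8 without it. MHC class I and immunoproteasome genes moved less: 7 of 16 rose and 1 fell (median 0.29), or 14 and none with library totals (median 0.61). Psmb9, an immunoproteasome subunit, rose by log2 1.21 ± 0.13, while B2m, the light chain of class I, was at log2 0.28 ± 0.15 (adjusted p = 0.149). B2m was called without the libraries 37, 39 and 40 (log2 0.52, adjusted p = 0.011), without CTRL+beta-Glucan replicate 1 alone (log2 0.41, adjusted p = 0.0273) and with library totals (log2 0.60, adjusted p = 0.000543). It was also called with the libraries 37, 39 and 40 as a term (log2 0.38, adjusted p = 0.0205). Of the dendritic cell markers 8 of 9 rose and 1 fell, and 5 rose without the libraries 37, 39 and 40; Flt3, the growth factor receptor of their precursors, rose by log2 2.02 ± 0.43 and Irf8, their lineage factor, by 1.48 ± 0.25. The summed level of that list was 20.2 to 24.0 CPM against 8.11 to 13.7 CPM.

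Of 20 markers of T and NK cells, 12 rose and none fell (median 1.1), with 6 called without the libraries 37, 39 and 40 and 7 without WSD+beta-Glucan replicate 3 or CTRL+beta-Glucan replicate 4 or 5. Their levels were low, with a summed 27.1 to 37.1 CPM with WSD and 14.7 to 27.5 CPM without it, so the sums of both groups overlapped. Cd8a, the chain of cytotoxic T cells, measured 1.21, 0.51, 1.25 and 0.8 CPM against 0.289, 0.0621, 0.12, 0.139 and 0.247 CPM (log2 2.42 ± 0.52, adjusted p = 0.00145), with no overlap. Cd3e rose by log2 1.31 ± 0.38 (adjusted p = 0.012) and Cd5, on 6 reads without WSD, by 2.69 ± 0.73 (adjusted p = 0.00773). Neither passed without the libraries 37, 39 and 40 (log2 1.11, adjusted p = 0.0955, and log2 2.05, adjusted p = 0.0764). Ccl5, a chemokine of T cells, was highest in WSD+beta-Glucan replicate 3, with 2.96, 3.02, 9.13 and 3.41 CPM against 1.66, 1.37, 0.901, 0.51 and 0.742 CPM (log2 2.20 ± 0.44). In the B cell and neutrophil lists 1 of 9 and 1 of 7 members rose (11.1% and 14.3%, against 19.1% of all genes) and 1 of each fell. The neutrophil list summed to 195, 97.4, 118 and 54.1 CPM with WSD. Without WSD it summed to 125, 42.1, 9.13, 7.51 and 6.68 CPM, so the groups overlapped through the library 39 alone. Without the libraries 37, 39 and 40, 2 of 6 neutrophil genes rose and none fell. The summed level of the B and plasma cell list was 246 to 316 CPM with WSD and 358 to 487 CPM without it, most of it from Sdc1, which hepatocytes express too.

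Chemokines, cytokines and their receptors were mostly higher, with 21 of 28 up, 1 down and a median of 1.70. Ccl2, the ligand of Ccr2, measured 2.47, 2.63, 2.68 and 1.43 CPM with WSD and 0.361, 0.0621, 0.18, 0.417 and 0.148 CPM without it (log2 3.25 ± 0.36, adjusted p = 1.85e-06). Cxcl9, an interferon gamma-induced chemokine, measured 13.4, 11, 13.9 and 19.8 CPM against 3.82, 3.04, 1.68, 3.15 and 2.82 CPM (log2 2.33 ± 0.23, adjusted p = 7.13e-07). For both, the groups did not overlap. Tnf was low throughout, on 48 reads with WSD and 14 without it, and rose by log2 1.74 ± 0.37 (adjusted p = 0.00139), and Ccl22, on 6 reads without WSD, by 4.10 ± 0.50. The 1 member that fell, named for that reason after its value was seen, was Cxcl13, a chemokine that attracts B cells. It stood at 0.329, 1.1, 0.303 and 0.632 CPM against 2.6, 2.11, 6.79, 1.85 and 0.89 CPM (log2 -2.23 ± 0.63, adjusted p = 0.0107) and was as low but not called without the libraries 37, 39 and 40 (log2 -2.20, adjusted p = 0.0542).

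Sensing of microbial products was represented by 35 genes, of which 25 rose and 1 fell (median 1.49). Their summed level was not higher, at 465 to 540 CPM with WSD and 481 to 614 CPM without it. In such a sum the most abundant members weigh most. Clec7a, the beta-glucan receptor Dectin-1, measured 10.2, 10.9, 11.7 and 10.8 CPM with WSD and 2.16, 1.06, 1.32, 1.16 and 0.495 CPM without it. Both groups received beta-glucan, and every library with WSD was more than 4 times the highest without it (log2 3.17 ± 0.29, adjusted p = 3.68e-07). Syk, the kinase that signals for Dectin-1, rose from 2.98 ± 0.839 to 9.77 ± 1.18 CPM (SD; log2 1.73 ± 0.21). Tlr2, a receptor of bacterial lipoproteins, rose by log2 2.21 ± 0.22 and Tlr4, the receptor of endotoxin, by 1.35 ± 0.35 (adjusted p = 0.00518; log2 0.98, adjusted p = 0.0792 without the libraries 37, 39 and 40). Unc93b1, which carries the nucleic acid-sensing Toll-like receptors to endosomes, rose less, from 35.2, 38.4, 35.7, 33.4 and 32.3 CPM to 51, 43.2, 53.7 and 46.7 CPM (log2 0.48 ± 0.08).

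Of 38 interferon-stimulated genes, 24 rose and none fell, with a median of 0.71. Oas1a and Oas3, synthetases of an RNase-activating signal, had among the smallest p, and Ifit3, an antiviral protein, is shown with them although it lies outside the naming rule. The 250 bases before their transcription start (RefSeq, build GRCm38.p6) are printed because these genes moved together and all hold a pair of GAAA letters with 2 bases of any kind between them (GAAA, N, N, GAAA), which resembles the response element of interferon factors. Capitals mark each match, overlapping matches joined; a match on the other strand reads TTTC, N, N, TTTC:
Oas1a, chr5:120907526-120907775, minus strand: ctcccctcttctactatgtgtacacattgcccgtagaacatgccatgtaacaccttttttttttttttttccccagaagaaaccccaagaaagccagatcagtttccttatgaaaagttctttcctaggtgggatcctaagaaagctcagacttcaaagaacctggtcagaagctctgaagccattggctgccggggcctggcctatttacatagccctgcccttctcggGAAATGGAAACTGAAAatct
Oas3, chr5:120777660-120777909, minus strand: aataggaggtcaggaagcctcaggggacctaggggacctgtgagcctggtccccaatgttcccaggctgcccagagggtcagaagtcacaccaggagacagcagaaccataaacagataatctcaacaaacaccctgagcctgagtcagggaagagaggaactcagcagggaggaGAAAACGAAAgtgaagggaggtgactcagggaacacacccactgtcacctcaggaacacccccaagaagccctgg
Ifit3, chr19:34583279-34583528, plus strand: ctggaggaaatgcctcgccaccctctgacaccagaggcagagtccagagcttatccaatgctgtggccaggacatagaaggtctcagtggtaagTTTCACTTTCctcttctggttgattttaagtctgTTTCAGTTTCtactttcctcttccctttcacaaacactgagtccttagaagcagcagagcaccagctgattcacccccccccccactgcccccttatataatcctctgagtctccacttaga
The pair occurred in 978 of 32851 promoters of this length in the table (2.98%). Counted per gene, it occurred in 14 of 28 genes of the interferon list with a promoter entry (50%) and in 11 of 17 that were called. These 28 genes had 32 promoter entries, so this share and the share of all promoters are in different units. A match describes letters only. Oas1a measured 8.29, 8.41, 7.92 and 7.62 CPM with WSD and 2.24, 2.11, 1.68, 1.72 and 1.73 CPM without it (log2 2.09 ± 0.15, adjusted p = 1.21e-08). Oas3 stood at 3.29, 2.76, 3.5 and 3.58 CPM against 0.938, 0.745, 0.541, 0.742 and 0.297 CPM (log2 2.35 ± 0.25), and Ifit3 at 31.3, 24.8, 19.3 and 26.5 CPM against 7.29, 6.64, 6.73, 9.37 and 13.7 CPM (log2 1.53 ± 0.20). No library of the groups overlapped in these 3 genes. Oasl2 rose by log2 1.91 ± 0.17, Isg15, a ubiquitin-like protein, by 0.97 ± 0.21 and Irf7, the factor that amplifies interferon production, by 0.55 ± 0.12.

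Of 18 collagen chains, 13 rose and 1 fell, with a median of 1.49. Summed over the chains the groups overlapped, at 1288 to 1632 CPM with WSD and 1115 to 1534 CPM without it. Col1a1, a chain of fibrillar type I collagen, measured 27.2, 50.2, 84.4 and 28.3 CPM with WSD and 2.24, 5.15, 3.6, 4.08 and 1.19 CPM without it. WSD+beta-Glucan replicate 3 was highest, and the lowest library with WSD was above the highest without it (log2 3.87 ± 0.46, adjusted p = 1.22e-05). Col3a1, of type III collagen, measured 43.7, 70.8, 89.6 and 45.9 CPM against 2.6, 8.69, 7.63, 11.7 and 3.31 CPM (log2 3.19 ± 0.39, adjusted p = 1.57e-05). Col4a1, of basement membranes, rose by log2 1.58 ± 0.18 and Col5a2 by 2.15 ± 0.28. In TPM, Col3a1, Col4a1 and Col1a1 averaged 24.6, 18.8 and 13 with WSD and 1.99, 5 and 0.68 without it, so Col4a1 had the highest level of the 3 without WSD and Col3a1 with it. Col27a1, the 1 chain that fell and named for that reason, was at log2 -1.02 ± 0.28 (adjusted p = 0.0095; log2 -0.80, adjusted p = 0.108 without the libraries 37, 39 and 40; log2 -0.71, adjusted p = 0.0697 with library totals).

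Of 32 further genes of the matrix and its turnover, 26 rose and 1 fell (median 1.5). Summed levels overlapped here too, at 1547 to 1613 CPM with WSD and 1346 to 1870 CPM without it. Timp1, an inhibitor of matrix proteases, measured 1.48, 2.85, 3.46 and 1.39 CPM with WSD and 0.144, 0, 0.24, 0.0927 and 0.0989 CPM without it, the latter on 10 reads (log2 4.27 ± 0.60, adjusted p = 3.02e-05). Thbs1, the matrix protein thrombospondin 1, rose by log2 3.15 ± 0.38 and Vim, the filament protein of mesenchymal cells, by 1.85 ± 0.26. Lox, which crosslinks collagen, was at 0.165, 1.06, 0.519 and 0.168 CPM against 0.0722, 0.372, 0.0601, 0.185 and 0.0495 CPM, and its call (log2 1.68 ± 0.64, adjusted p = 0.0473) was lost in 16 of 27 alternative analyses, among them without WSD+beta-Glucan replicate 2 (log2 0.94, adjusted p = 0.302). Fn1, fibronectin, which hepatocytes secrete into plasma, was the 1 member that fell (log2 -0.41 ± 0.14, adjusted p = 0.0244); it was not called without the libraries 37, 39 and 40 (log2 -0.33, adjusted p = 0.137), with library totals (log2 -0.11, adjusted p = 0.472) or when WSD+beta-Glucan replicate 2, WSD+beta-Glucan replicate 3 or CTRL+beta-Glucan replicate 2 was left out.

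Of 19 stellate cell and fibroblast markers, 11 rose and none fell, with a median of 0.90. The call count was 6 of 19 both without the libraries 37, 39 and 40 and without WSD+beta-Glucan replicate 2, and 7 without CTRL+beta-Glucan replicate 5. Their summed level was 509 to 668 CPM with WSD and 223 to 448 CPM without it. Dpt, the matrix protein dermatopontin, measured 5.16, 14.6, 17 and 5.77 CPM against 0.505, 3.17, 2.1, 1.95 and 0.495 CPM (log2 2.69 ± 0.49, adjusted p = 0.000514) and Lum, the collagen-binding lumican, rose by log2 1.89 ± 0.36 (adjusted p = 0.000543). The resting stellate cell genes Lrat, which esterifies vitamin A, and Reln overlapped between groups, at log2 0.78 ± 0.32 (adjusted p = 0.0676) and 0.60 ± 0.31 (adjusted p = 0.149). Both were called without CTRL+beta-Glucan replicate 4 (Lrat at log2 1.09, adjusted p = 0.0103, and Reln at log2 0.88, adjusted p = 0.0322), and Lrat also with library totals (log2 1.04, adjusted p = 0.0234). Lrat was further called by DESeq2 (log2 0.79, adjusted p = 0.0411), by limma-voom (log2 0.84, adjusted p = 0.0383) and without CTRL replicate 1 (log2 0.78, adjusted p = 0.0385).

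A single library, WSD+beta-Glucan replicate 2, carried the smooth muscle and part of the bile duct signal. Acta2, smooth muscle actin, measured 4.45, 56, 1.47 and 0.926 CPM with WSD and 0.144, 1.37, 1.08, 0.51 and 0.148 CPM without it. Tagln, transgelin of smooth muscle, measured 6.2, 47.9, 6.14 and 3.96 CPM against 1.23, 3.48, 3.12, 2.83 and 2.08 CPM. Both genes were chosen after their values were seen. With that library the log2 fold changes were 4.61 ± 1.42 (adjusted p = 0.0201) and 2.65 ± 0.84 (adjusted p = 0.0233), and without it 1.79 (adjusted p = 0.307) and 1.08 (adjusted p = 0.275). Without the libraries 37, 39 and 40 the fold changes were as large but neither was called (Acta2 at log2 5.13, adjusted p = 0.0738, and Tagln at log2 2.86, adjusted p = 0.0788). Cholangiocyte markers, of the bile duct lining, rose in 11 of 15 cases and fell in 1 (median 2.07), but in 3 of 15 without that library (median 1.25), in 6 of 15 without the libraries 37, 39 and 40 or without CTRL+beta-Glucan replicate 5, and in 7 without WSD+beta-Glucan replicate 3. Their summed level was 773 to 1319 CPM with WSD and 538 to 676 CPM without it.

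Krt19, a keratin of bile ducts, measured 2.2, 42.1, 5.5 and 1.18 CPM with WSD and 0.0722, 2.11, 1.74, 1.53 and 0.692 CPM without it, and its call (log2 3.36 ± 1.08, adjusted p = 0.0242) was lost without replicate 2 (log2 1.25, adjusted p = 0.331), without the libraries 37, 39 and 40 (log2 3.64, adjusted p = 0.064) and without CTRL+beta-Glucan replicate 1 or 5. Muc1, a mucin chosen after its values were seen, showed the same pattern at 1.59, 34.2, 6.01 and 1.26 CPM against 0.289, 0.559, 0.901, 0.974 and 0.396 CPM (log2 4.07 ± 1.12; 2.21 with an adjusted p = 0.0992 without that library). Epcam and Tspan8 were high in replicates 2 and 3 and near the other group in replicates 1 and 4. Epcam, an adhesion protein, measured 1.65, 11.8, 10.6 and 1.26 CPM against 0.289, 1.18, 2.1, 1.99 and 0.742 CPM (log2 2.30 ± 0.71, adjusted p = 0.0186; log2 1.81, adjusted p = 0.0773 without replicate 2; log2 2.30, adjusted p = 0.0538 without the libraries 37, 39 and 40). Tspan8, a tetraspanin, measured 1.15, 8.79, 8.22 and 0.716 CPM against 0.216, 0.559, 0.541, 0.742 and 0.495 CPM (log2 3.16 ± 0.80, adjusted p = 0.00564). Limma-voom called none of Acta2, Tagln, Krt19, Muc1, Epcam and Tspan8 (adjusted p = 0.238, 0.104, 0.185, 0.118, 0.147 and 0.119). Krt8, a keratin that hepatocytes express too, rose in all 4 libraries, with 448, 482, 566 and 362 CPM against 262, 225, 217, 196 and 196 CPM (log2 1.08 ± 0.14, adjusted p = 1.57e-05). Sox9, a transcription factor of duct and progenitor cells, was the 1 marker that fell (log2 -0.92 ± 0.24, adjusted p = 0.00592; log2 -0.66, adjusted p = 0.104 without the libraries 37, 39 and 40; log2 -0.61, adjusted p = 0.0566 with library totals). The smooth muscle and duct genes were high in the same library, and the part of 1 in the other was not tested.

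Of 33 genes of the cell cycle and DNA replication, 23 rose and 2 fell (median 1.22). Their summed levels overlapped, at 184 to 228 CPM with WSD and 127 to 232 CPM without it. Mki67, which marks dividing cells, measured 3.79, 4.08, 5.06 and 4.59 CPM with WSD and 0.577, 0.683, 0.541, 0.649 and 0.297 CPM without it (log2 2.99 ± 0.28, adjusted p = 3.42e-07). Ccnd1, cyclin D1 of the G1 phase, measured 24.9, 42.5, 49.6 and 34.9 CPM against 8.3, 8.38, 8.65, 6.58 and 8.65 CPM (log2 2.23 ± 0.19, adjusted p = 1.06e-07). The groups did not overlap in either gene. Top2a, a topoisomerase of replicating cells, rose by log2 2.24 ± 0.34 and Kif20a, a kinesin of cell division, by 2.35 ± 0.30. The files do not show in which cells these transcripts were made.

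Cholesterol synthesis ran the other way. Of 27 genes of the pathway and of SREBP2 targets, 23 fell and none rose, with a median of -1.17, where 15.2% of all genes fell. Without the libraries 37, 39 and 40, 19 of 27 fell, and with library totals 19 fell and 1 rose. The summed levels overlapped, at 1178 to 1576 CPM with WSD and 1481 to 2335 CPM without it. Idi1, the isomerase that makes the allylic isoprene unit, measured 3.95, 4.33, 4.5 and 6.11 CPM with WSD and 27.8, 44.6, 18.7, 27.7 and 33 CPM without it (log2 -2.68 ± 0.24, adjusted p = 3.2e-07). Sqle, squalene epoxidase, measured 0.494, 1.36, 1.9 and 0.758 CPM against 18.5, 24.3, 6.07, 11 and 8.21 CPM (log2 -3.56 ± 0.51, adjusted p = 6.2e-05). Fdft1, squalene synthase, stood at 0.659, 1.78, 1.21 and 1.43 CPM against 24.5, 48.4, 8.29, 15.6 and 18.1 CPM (log2 -4.14 ± 0.66, adjusted p = 0.000176). In these 3 genes the highest library with WSD stayed below the lowest without it, and the CTRL+beta-Glucan libraries varied several-fold among themselves.

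Later steps fell too. Cyp51, the lanosterol demethylase, measured 6.26, 10.1, 9.82 and 8.63 CPM with WSD and 54.3, 67.2, 32.1, 37.8 and 40.3 CPM without it (log2 -2.40 ± 0.22, adjusted p = 3.54e-07). Tm7sf2, a sterol reductase, fell from 119 ± 13.6 to 34.2 ± 6.65 CPM (SD; log2 -1.80 ± 0.13, adjusted p = 1.21e-08) and Lss, lanosterol synthase, from 19.6 ± 3.62 to 8.59 ± 0.604 CPM (log2 -1.18 ± 0.13). The SREBP2 gene itself moved less. Srebf2, which encodes SREBP2, measured 25, 28.2, 34.7 and 31.5 CPM with WSD and 58.5, 65.4, 46.2, 47.8 and 52.7 CPM without it (log2 -0.86 ± 0.11, adjusted p = 1.21e-05). Hmgcs1, a synthase at an early step of the pathway, was named outside the rule because its promoter holds the only match of the list to the sterol regulatory element searched, TCACNCCAC on either strand, among 19 list genes with a promoter entry (346 of 32851 promoters hold it, 1.05%). Its 250 bases before the start (RefSeq, GRCm38.p6), with the match in capitals 137 bases before the start, read
Hmgcs1, chr13:119690101-119690350, plus strand: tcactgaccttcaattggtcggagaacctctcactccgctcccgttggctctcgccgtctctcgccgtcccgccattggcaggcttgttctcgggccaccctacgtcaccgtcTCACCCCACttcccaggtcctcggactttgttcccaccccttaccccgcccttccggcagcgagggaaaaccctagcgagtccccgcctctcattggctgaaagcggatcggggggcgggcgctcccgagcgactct
The 19 genes had 23 promoter entries, and the other 18 genes lack these exact letters in this window, from which nothing follows about SREBP2. Hmgcs1 itself measured 50.9, 49.2, 55.9 and 59.3 CPM with WSD and 94.8, 106, 66.5, 84.9 and 82 CPM without it (log2 -0.69 ± 0.15, adjusted p = 0.00128), with no overlap.

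**Figure D3:**
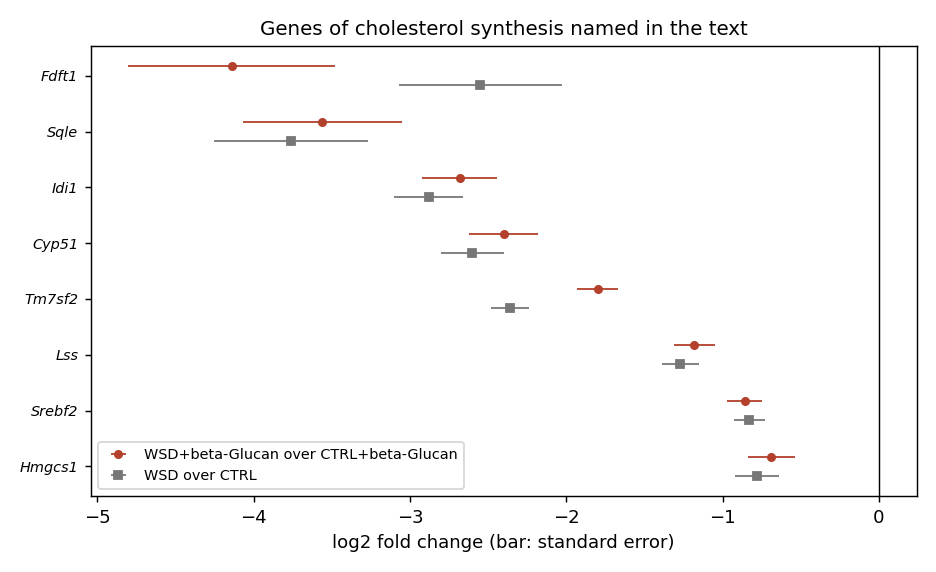
Log2 fold changes with SE (bars) of the 8 cholesterol synthesis genes named in the text, for WSD+beta-Glucan over CTRL+beta-Glucan (red circles) and for WSD over CTRL (grey squares). The 8 genes lie below 0 in both comparisons, and Fdft1 has the lowest value of the beta-glucan comparison at -4.14.

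Among genes that move sterol out of cells, 5 of 15 rose (33.3%) and 3 fell (20%), with a median of 0.21. Of all genes 19.1% rose and 15.2% fell. With library totals 10 rose and 1 fell (median 0.51). The count of higher genes was 3 without the libraries 37, 39 and 40 and in 4 of the 9 analyses that left out 1 library, WSD+beta-Glucan replicate 1 or 4 or CTRL+beta-Glucan replicate 2 or 5. Abcg1, a sterol exporter of macrophages, measured 15.1, 12.5, 13.1 and 12.5 CPM with WSD and 4.55, 4.53, 4.2, 4.91 and 2.82 CPM without it (log2 1.66 ± 0.17, adjusted p = 7.94e-07), and Soat1, which esterifies cholesterol in macrophages, rose by log2 1.61 ± 0.19. Abca1, an exporter that many cell types express, overlapped between groups, at log2 0.38 ± 0.27 (adjusted p = 0.289). The macrophage genes described above rose in the same libraries, and their part in the values of Abcg1 and Soat1 was not tested.

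Of 23 de novo lipogenesis genes, 7 were higher (30.4%) and 5 lower (21.7%), against 19.1% and 15.2% of all genes. With library totals 12 were higher and none lower. Scd1, the desaturase that makes oleate, measured 15710, 10376, 10481 and 18198 CPM with WSD and 2918, 3073, 3186, 4318 and 3054 CPM without it. The groups were far apart, with a log2 fold change of 2.05 ± 0.23 (adjusted p = 2.35e-06). Mogat1, which joins fatty acids to monoacylglycerol, rose from 1.08, 0.869, 1.74, 1.9 and 1.63 CPM to 11.2, 10.3, 9.48 and 11.7 CPM (log2 2.86 ± 0.21) and Thrsp, a lipogenic regulator, by log2 1.92 ± 0.19. Srebf1, which encodes the lipogenic factor SREBP1, rose less (log2 0.54 ± 0.18, adjusted p = 0.026; log2 0.46, adjusted p = 0.092 without the libraries 37, 39 and 40), and was not called without WSD+beta-Glucan replicate 1 or CTRL+beta-Glucan replicate 3. Fasn, fatty acid synthase, overlapped at log2 0.29 ± 0.19 (adjusted p = 0.241), but was called without the libraries 37, 39 and 40 (log2 0.64, adjusted p = 0.00791), with these as a term (log2 0.44, adjusted p = 0.0236) and with library totals (log2 0.63, adjusted p = 0.00897).

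For PPAR gamma, its targets and lipid droplets, 10 of 28 genes rose (35.7%) and 5 fell (17.9%), with a median of 0.00. Of all genes 19.1% rose and 15.2% fell. With library totals 15 rose and 2 fell, and 3 fell without the libraries 37, 39 and 40 or without WSD+beta-Glucan replicate 1 or 2 or CTRL+beta-Glucan replicate 3. Pparg measured 16.3, 14.4, 18.2 and 17.6 CPM with WSD and 5.7, 8.01, 9.61, 9.04 and 10.1 CPM without it (log2 0.96 ± 0.14, adjusted p = 3.13e-05). Cd36, a fatty acid transporter, measured 180, 175, 174 and 205 CPM against 23.5, 20.1, 45.6, 46.2 and 67.9 CPM (log2 2.17 ± 0.26, adjusted p = 7.61e-06). For both genes the groups were apart, and Cd36 varied about 3-fold among the CTRL+beta-Glucan libraries. Fabp4, a fatty acid carrier of fat cells and macrophages, rose by log2 2.59 ± 0.26. Cidec, a droplet protein related to Cidea, ranged widely without WSD, with 13.5, 5.77, 106, 20.2 and 63 CPM against 92.8, 118, 167 and 114 CPM with it (log2 1.56 ± 0.61, adjusted p = 0.0593). Cidec was called without CTRL+beta-Glucan replicate 3 (log2 2.25, adjusted p = 0.0078), by DESeq2 (log2 1.56, adjusted p = 0.0272) and with library totals (log2 1.82, adjusted p = 0.0337). It was also called by limma-voom (log2 2.21, adjusted p = 0.0165) and with the libraries 37, 39 and 40 as a term (log2 1.75, adjusted p = 0.0171).

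In fatty acid oxidation 12 of 40 genes fell and 1 rose, with a median of -0.27. The median was 0.02 with library totals (1 lower and 6 higher) and -0.35 without the libraries 37, 39 and 40 (17 lower). Acadvl, an acyl-CoA dehydrogenase for very long chains, was lower, at log2 -0.39 ± 0.08 (adjusted p = 0.00111; log2 -0.10, adjusted p = 0.417 with library totals), and Angptl4, an inhibitor of lipoprotein lipase, measured 158, 167, 157 and 155 CPM against 249, 242, 261, 216 and 288 CPM (log2 -0.66 ± 0.14, adjusted p = 0.0015; log2 -0.36, adjusted p = 0.0637 with library totals). Ppara, the factor that drives the pathway, and Cpt1a, its gate into mitochondria, overlapped between groups, at log2 -0.18 ± 0.28 (adjusted p = 0.642) and -0.24 ± 0.19 (adjusted p = 0.33), and the sign of both flipped with library totals. Among apolipoproteins and lipoprotein-handling genes 13 of 28 fell and 3 rose, or 6 and 8 with library totals. Apom, the apolipoprotein that carries sphingosine 1-phosphate, measured 44.8, 72.5, 77.4 and 88.3 CPM with WSD and 185, 218, 195, 218 and 208 CPM without it (log2 -1.53 ± 0.18, adjusted p = 6.28e-06). Apoa1, the main protein of HDL, stood at log2 -0.82 ± 0.14 and Apoa5, an activator of lipoprotein lipase, at -1.02 ± 0.13, both past the threshold (adjusted p = 0.000214 and 7.51e-06).

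Glucose genes moved in both directions. G6pc, the phosphatase that releases glucose, measured 166, 258, 267 and 202 CPM with WSD and 412, 506, 592, 654 and 987 CPM without it (log2 -1.50 ± 0.21, adjusted p = 3.69e-05). Pck1, the first enzyme of gluconeogenesis, measured 1809, 2066, 1581 and 1910 CPM against 6881, 6464, 4588, 4268 and 4808 CPM (log2 -1.55 ± 0.28, adjusted p = 0.000321). Neither gene overlapped between groups. Hk2 and Pkm, the hexokinase and pyruvate kinase forms of dividing and immune cells, rose by log2 2.98 ± 0.35 and 1.59 ± 0.20. In all, 7 of 28 genes of glucose metabolism rose (25%) and 10 fell (35.7%), against 19.1% and 15.2% of all genes. The median was -0.28. With library totals 11 rose and 7 fell (median 0.03).

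Hepatocyte transcripts were lower as a group. Of 19 general hepatocyte markers, 9 fell and none rose (median -0.42, and -0.11 with library totals). Alb, albumin, measured 57840, 55311, 43972 and 69313 CPM with WSD and 109200, 94505, 83803, 104836 and 110474 CPM without it (log2 -0.83 ± 0.15, adjusted p = 0.000316), while Ttr, transthyretin, overlapped at log2 -0.36 ± 0.18 (adjusted p = 0.119; log2 -0.52, adjusted p = 0.0448 without WSD+beta-Glucan replicate 1). In the urea cycle and amino acid metabolism 19 of 34 genes fell and 1 rose (median -0.53), and 12 fell without the libraries 37, 39 and 40. Asl, which splits argininosuccinate, measured 454, 579, 459 and 679 CPM against 1679, 1653, 1560, 1207 and 1543 CPM (log2 -1.49 ± 0.19, adjusted p = 1.19e-05), Cps1, the first enzyme of the cycle, stood at log2 -0.88 ± 0.24 (adjusted p = 0.00689; log2 -0.83, adjusted p = 0.0509 without the libraries 37, 39 and 40), and Ass1, the step before Asl, at -0.43 ± 0.20 (adjusted p = 0.103), which did not pass. Sdsl, a serine dehydratase-like enzyme, and Cbs, of homocysteine disposal, fell from 37 ± 9.28 to 13 ± 0.763 CPM and from 700 ± 99.6 to 396 ± 25.7 CPM. The 1 member that rose was Glul, glutamine synthetase of the hepatocytes around the central vein, at 1297, 1384, 1475 and 1876 CPM against 890, 858, 1002, 737 and 910 CPM (log2 0.78 ± 0.14, adjusted p = 0.000316). The wider list of Wnt-driven pericentral genes, which also holds Glul, rose in 9 of 21 cases and fell in 2 (median 0.38). With library totals 16 rose. In WSD against CTRL 5 rose and 8 fell (median -0.13), but no member passed the test of the difference between both diet effects.

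Of 18 hepatocyte transcription factors, 8 fell and 1 rose, against 3 and 0 without the libraries 37, 39 and 40, and 1 and 2 with library totals. Without WSD+beta-Glucan replicate 1 or 2 alone, 5 and 4 fell. Hnf4a, the nuclear receptor that maintains hepatocyte identity, measured 459, 464, 447 and 502 CPM with WSD and 934, 870, 577, 598 and 543 CPM without it (log2 -0.59 ± 0.14, adjusted p = 0.0037; log2 -0.27, adjusted p = 0.0958 without those 3 libraries; log2 -0.27, adjusted p = 0.0697 with library totals). Foxa3, Esr1 and Cebpa overlapped between groups, at log2 -0.60 ± 0.16, -0.89 ± 0.24 and -0.33 ± 0.12, with adjusted p = 0.00852, 0.00728 and 0.0408. Foxa3 was not called without those 3 libraries (log2 -0.33, adjusted p = 0.193) or with library totals (log2 -0.29, adjusted p = 0.142), and the call of Cebpa was lost in 11 of 29 alternative analyses, among them that without the 3 libraries (log2 -0.21, adjusted p = 0.296). Macrophage and matrix transcripts rose in the same libraries, and the part of that shift in the share of hepatocyte RNA was not tested.

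Of 29 genes known for higher levels in male liver, 19 fell and none rose, with a median of -1.55, and 11 fell without the libraries 37, 39 and 40. This list holds major urinary protein genes and Serpina1e, whose copies share reads. Elovl3, a fatty acid elongase, measured 118, 171, 101 and 150 CPM with WSD and 838, 675, 549, 460 and 433 CPM without it (log2 -2.13 ± 0.29, adjusted p = 2.61e-05). C8b, a chain of complement component C8, measured 69.8, 89, 58 and 73.7 CPM against 382, 342, 218, 229 and 203 CPM (log2 -1.92 ± 0.25, adjusted p = 1.58e-05). Both genes were separate between groups. Gstp1, a glutathione transferase with a close copy, fell from 3422 ± 1549 to 911 ± 281 CPM (log2 -1.91). Of 14 female-biased genes 5 rose, among them Ntrk2 and Cyp2b9, and 3 fell, against 3 and 4 without the libraries 37, 39 and 40 and 5 lower without WSD+beta-Glucan replicate 4. Male bias is set by pulsed growth hormone. Of 13 genes of that axis 1 rose (7.69%) and 2 fell (15.4%), below and near the 19.1% and 15.2% of all genes. The part of this axis in the fall of male-biased genes was not tested. The 2 that fell were Igf1 (log2 -0.56 ± 0.13, adjusted p = 0.00341) and Igfals, which holds IGF1 in plasma (log2 -0.83 ± 0.22, adjusted p = 0.0072). Igf1 was not called with library totals (log2 -0.27, adjusted p = 0.051). Igfals was not called without the libraries 37, 39 and 40 (log2 -0.78, adjusted p = 0.0633).

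**Figure D4:**
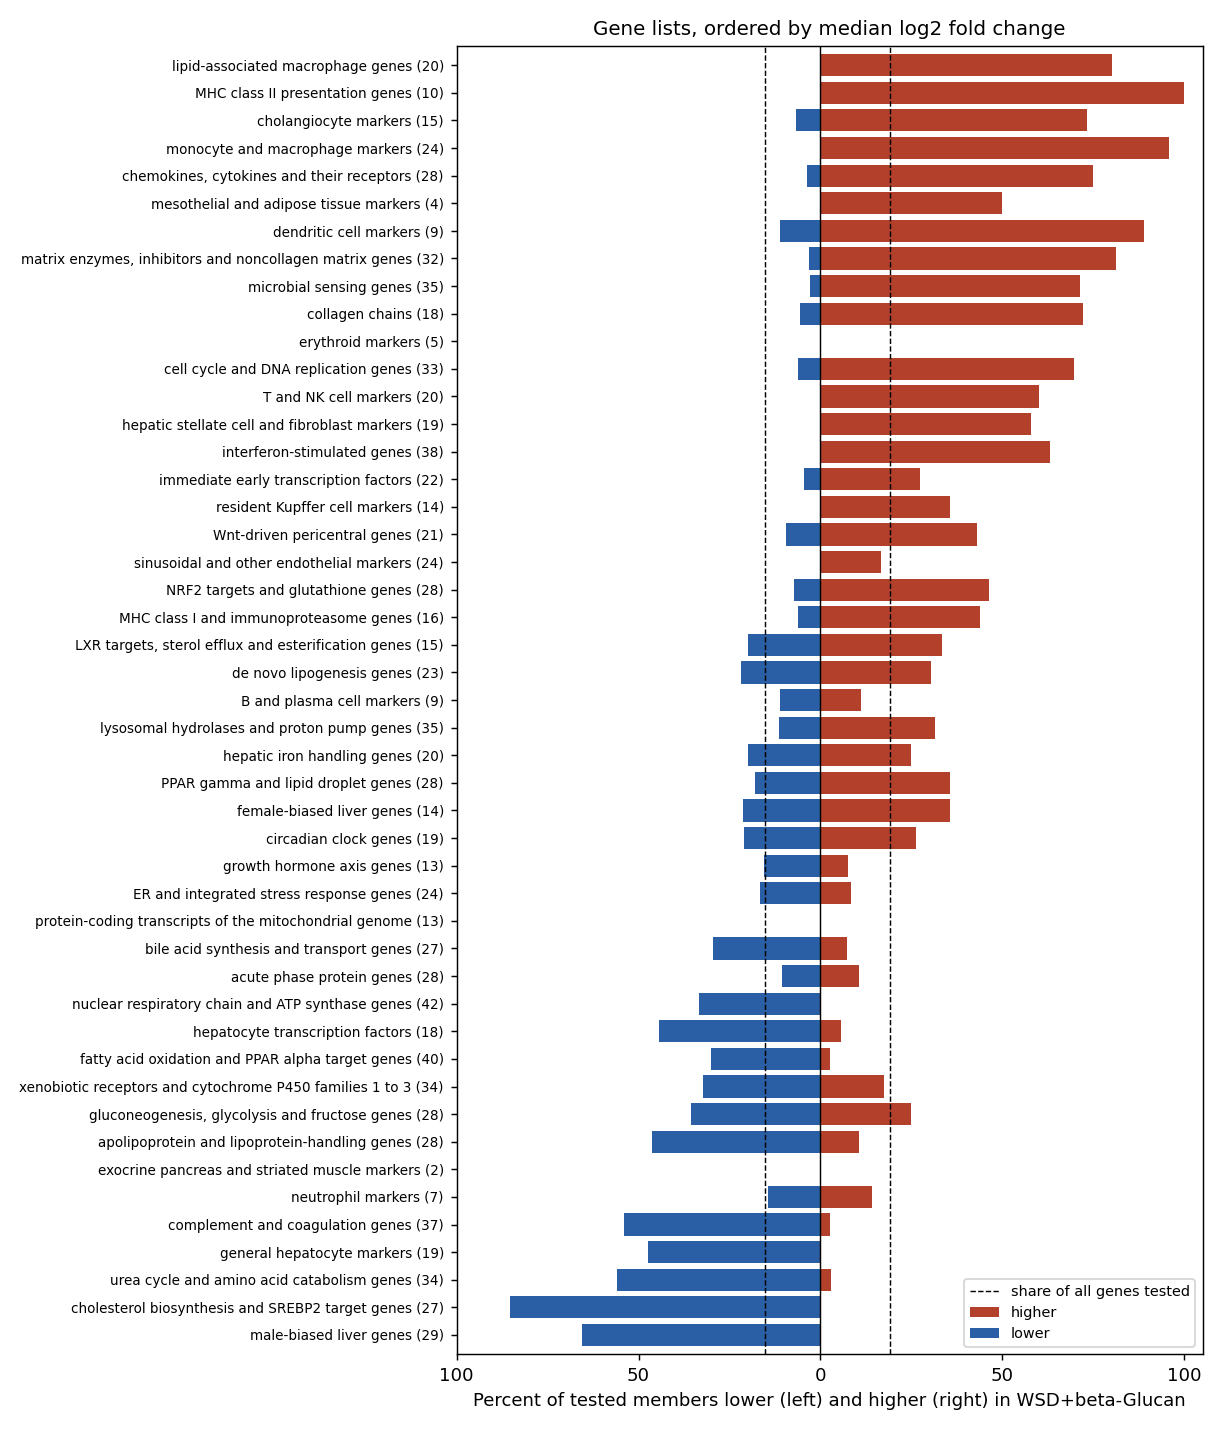
Percent of tested members of 47 gene lists that rose (red, right) or fell (blue, left) in WSD+beta-Glucan against CTRL+beta-Glucan, ordered by median log2 fold change, with the number tested in brackets; dashed lines mark 19.1% and 15.2%, the shares of all genes tested. MHC class II (100% higher) and cholesterol synthesis (85.2% lower) reach the largest shares in either direction among lists with at least 10 tested members.

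Detoxification genes divided. Of 28 NRF2 targets and glutathione genes, 13 rose and 2 fell, with Gsta1, a glutathione transferase with close copies, at 27.9, 24.8, 19.3 and 21.6 CPM against 4.11, 2.61, 1.92, 2.46 and 0.692 CPM (log2 3.35 ± 0.38, adjusted p = 7.39e-06). Gstm3 rose by log2 2.68 ± 0.32 and Nfe2l2, which encodes NRF2, by 0.69 ± 0.11. Of 34 xenobiotic receptors and cytochromes P450, 6 rose (17.6%) and 11 fell (32.4%), near and above the 19.1% and 15.2% of all genes. The median was -0.27, and 0.02 with library totals, and 7 fell without the libraries 37, 39 and 40. Cyp2c38 was at log2 0.98 ± 0.12, Cyp2d10 at -0.75 ± 0.12, and Nr1i3, the receptor CAR, at -0.22 ± 0.14 (adjusted p = 0.216). In bile acid metabolism 8 of 27 genes fell (29.6%) and 2 rose (7.41%), and 5 fell and 7 rose with library totals. The count of lower genes was 5 without the libraries 37, 39 and 40 or without WSD+beta-Glucan replicate 2. Cyp7b1, of the alternative pathway, measured 35.8, 48.5, 23.5 and 36.8 CPM with WSD and from 110 to 300 CPM without it (log2 -2.27 ± 0.40, adjusted p = 0.000405). Cyp7a1, which starts the classical route to bile acids, measured 35, 36.8, 47.1 and 145 CPM against 4.47, 18.7, 17.8, 43.7 and 43.4 CPM, with replicate 4 far above the rest (log2 1.35 ± 0.79, adjusted p = 0.2). Cyp8b1, which sets the share of cholic acid, was lower at log2 -1.18 ± 0.35 (adjusted p = 0.0148; log2 -1.11, adjusted p = 0.0534 without the libraries 37, 39 and 40; log2 -1.06, adjusted p = 0.0518 without WSD+beta-Glucan replicate 2). Slco1a1, an organic anion carrier named outside the rule and with close relatives, was lower at log2 -2.04 ± 0.57 (adjusted p = 0.0121).

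The lists of plasma protein genes made by the liver did not move alike. In complement and coagulation 20 of 37 genes fell and 1, Cfd, rose, with a median of -0.39; 8 fell without the libraries 37, 39 and 40, 13 without WSD+beta-Glucan replicate 2 or 3 and 6 with library totals. Of 28 acute phase genes 3 rose and 3 fell (10.7% each), below the shares of all genes, and 8 rose without the libraries 37, 39 and 40. Without WSD+beta-Glucan replicate 1, CTRL+beta-Glucan replicate 3 or CTRL+beta-Glucan replicate 4, 7, 6 and 5 fell. Hamp, the iron hormone hepcidin, measured 294, 285, 146 and 163 CPM with WSD and 1028, 1356, 832, 569 and 490 CPM without it (log2 -1.94 ± 0.40, adjusted p = 0.00119), while Steap4, a metalloreductase, rose from 25.7 ± 6.23 to 106 ± 31.5 CPM (log2 2.04 ± 0.23).

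Single stress and early-response genes moved in both directions. Atf3, a stress-induced factor, measured 6.26, 8.54, 10.3 and 5.1 CPM with WSD and 0.866, 1.8, 2.46, 1.53 and 1.38 CPM without it (log2 2.22 ± 0.32, adjusted p = 4.52e-05), and Gdf15, a stress hormone that lowers appetite, measured 19, 14.3, 25.9 and 16.1 CPM against 7, 6.21, 9.97, 3.57 and 4.55 CPM (log2 1.60 ± 0.26, adjusted p = 0.000157). Atf4, the main factor of the integrated stress response, went the other way (log2 -0.59 ± 0.13, adjusted p = 0.00188; log2 -0.43, adjusted p = 0.0537 without the libraries 37, 39 and 40; log2 -0.28, adjusted p = 0.12 with library totals). Asns, an Atf4 target chosen after its values were seen, was high in CTRL+beta-Glucan replicates 1 and 2, with 5.56, 12.8, 2.58, 1.53 and 0.841 CPM against 0.22, 1.66, 1.04 and 0.211 CPM with WSD (log2 -2.52 ± 0.79), and its call was lost without the libraries 37, 39 and 40 (log2 -0.74, adjusted p = 0.474). Of 24 genes of these stress responses 2 rose (8.33%) and 4 fell (16.7%), below and near the 19.1% and 15.2% of all genes. Without the libraries 37, 39 and 40, 4 rose and 1 fell. Among 22 immediate early genes 6 rose (27.3%) and 1 fell (4.55%), or 11 and none with library totals. Klf6 was at log2 2.24 ± 0.19 and Egr2, on 6 reads without WSD, at 3.92 ± 0.44. Of 35 lysosomal genes 11 rose and 4 fell, or 22 and none with library totals, and 2 fell without the libraries 37, 39 and 40. Grn, progranulin, 1 of the 4 that fell, was at log2 -0.56 ± 0.11 (adjusted p = 0.000464) and was not called with library totals (log2 -0.27, adjusted p = 0.0831).

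Of 19 clock genes 5 were higher (26.3%) and 4 lower (21.1%), near the 19.1% and 15.2% of all genes, and 3 were higher without WSD+beta-Glucan replicate 1. Arntl, a core activator of the clock, measured 7.85, 11, 13.8 and 10.4 CPM with WSD and 16.5, 23, 19.1, 23.6 and 24.8 CPM without it (log2 -0.99 ± 0.17, adjusted p = 0.000158), and Dbp, a clock output gene named outside the rule, measured 42.9, 14, 15.5 and 29.6 CPM against 7.86, 5.21, 4.44, 2.74 and 2.92 CPM (log2 2.48 ± 0.53, adjusted p = 0.00182). The time of day of sampling is not in the labels, and its part in these values was not tested. Respiratory chain genes of the nucleus fell in 14 of 42 cases and rose in none (median -0.23). The count of lower genes was 6 without the libraries 37, 39 and 40 and 8 without WSD+beta-Glucan replicate 2, and with library totals none fell and 3 rose (median 0.07). By edgeR none of the 13 coding transcripts of the mitochondrial genome was called.

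The same diet contrast in mice without beta-glucan, WSD against CTRL, called 7208 genes (53%), 3528 higher and 3680 lower. Of the 4656 genes called with beta-glucan, 3963 were called in the same direction without it (85.1% of these and 55% of the 7208) and 2 in the opposite direction. Across the 13594 genes, which are not independent, the correlation of both log2 fold changes was r = 0.84. Among the 3963 shared genes the change was smaller with beta-glucan in 3040 (76.7%), with a median size of log2 0.76 against 0.98. Group sizes of 4 against 5 and of 5 against 5 differ as well, so the counts of calls are not a measure of effect size.

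**Figure D5:**
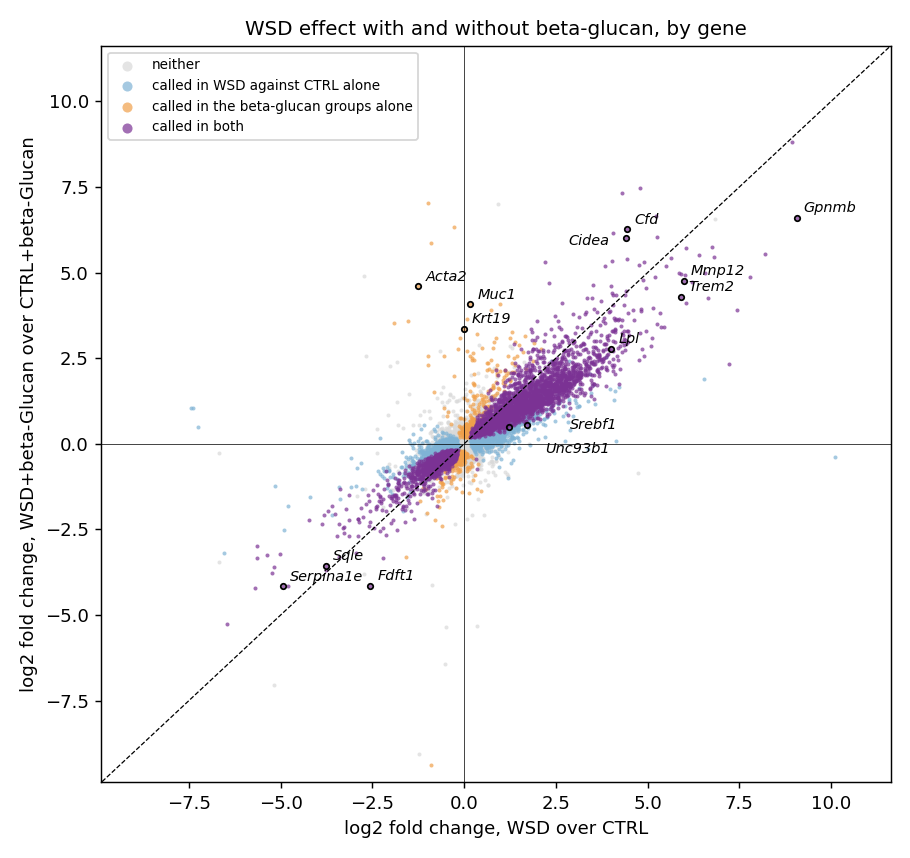
Log2 fold change of WSD over CTRL (horizontal) against WSD+beta-Glucan over CTRL+beta-Glucan (vertical) for each of 13594 genes, coloured by the comparisons in which edgeR called them, with equal changes on the dashed line. Gpnmb, Trem2, Mmp12 and Lpl lie below the line, Cfd and Cidea above it, and Acta2, Krt19 and Muc1 near or left of 0 on the horizontal axis.

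The difference between both effects was tested by an interaction term, and 1 gene passed (0.00736%), against 1865 at an unadjusted p under 0.05 (938 with a difference above 0 and 927 below). The count was 81, with 10 above 0, without CTRL+beta-Glucan replicate 5, and 139, with 13 above 0, by DESeq2. The gene that passed was Unc93b1. It averaged 48.7 ± 4.64 CPM (SD, n = 4) in WSD+beta-Glucan and 35 ± 2.32 (n = 5) in CTRL+beta-Glucan, against 68.7 ± 3.96 (n = 5) in WSD and 29.2 ± 2.95 (n = 5) in CTRL. WSD thus raised it by log2 0.48 ± 0.08 with beta-glucan and by 1.23 ± 0.08 without, a difference of -0.76 ± 0.12 (adjusted p = 0.0366), which lost its call in 16 of 28 alternative analyses (adjusted p up to 0.171).

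The macrophage lists had lower medians with beta-glucan than without it: 1.98 against 2.83 for monocytes and macrophages, 2.47 against 3.57 for lipid-associated macrophages and 2.42 against 3.60 for MHC class II. Without the libraries 37, 39 and 40 the medians with beta-glucan were 2.54, 2.62 and 2.84, so the gaps depend in part on these libraries. No member of these 3 lists passed the test of the difference. Gpnmb rose by log2 6.61 ± 0.50 with beta-glucan and by 9.06 ± 0.53 without, a difference of -2.45 ± 1.08 (adjusted p = 0.336). The differences of Trem2 and Mmp12 were -1.60 ± 0.61 (adjusted p = 0.287) and -1.22 ± 0.39 (adjusted p = 0.222). For Lpl the difference was -1.23 ± 0.23 (adjusted p = 0.115) and for Srebf1 -1.17 ± 0.25 (adjusted p = 0.128), neither of which passed here; Lpl passed by DESeq2, with library totals and without CTRL+beta-Glucan replicate 5, and Srebf1 by DESeq2.

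Cholesterol synthesis genes had near-equal medians, -1.17 with beta-glucan and -1.08 without, and 23 and 22 of 27 fell. Without the libraries 37, 39 and 40 the median with beta-glucan was -0.84. Idi1 changed by log2 -2.68 ± 0.24 and -2.88 ± 0.22, a difference of 0.20 ± 0.31 (adjusted p = 0.789). Fatty acid oxidation genes had medians of -0.27 and -0.68, with 12 and 31 of 40 lower and none past the test of the difference. Cholangiocyte markers had medians of 2.07 and 0.94, with WSD+beta-Glucan replicate 2 in the first and none past the test of the difference. Acta2 stood at log2 4.61 ± 1.42 with beta-glucan and -1.25 without, a difference of 5.86 ± 1.81 (adjusted p = 0.222).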

How the data were processed

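RNA of mouse liver was isolated with a PureLink kit and made into TruSeq Stranded mRNA libraries, per the labels' protocols. The authors deposited, for each library, a Salmon table per transcript, and Salmon 1.10.1, DESeq2 1.38.3 and the build GRCm39 stand in the submitters' processing notes. The transcript set and Salmon's options are not given in the sources used here. Estimated counts per transcript, as deposited by the authors, were summed per gene and rounded to whole numbers. The deposited TPM values, which the authors' Salmon run scaled by transcript length and depth, were used only to compare levels between genes. Deposited effective lengths, per the file headers in bases, were used only in an alternative with length offsets.

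Transcripts were assigned to genes by GENCODE M21, which held 115977 of 116546 transcripts (99.51%); the other 569 took 0.0623 to 0.1095% of the reads and were left out. This annotation is of GRCm38, so no gene coordinates are given except those of the RefSeq promoters (GRCm38.p6). Depth was 17253823 to 23450232 estimated reads over all 19 libraries, and no 2 libraries held identical values. Replicates were numbered in accession order, since the labels give no replicate numbers.

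One model with a coefficient for each of the 4 groups was fitted to all 19 libraries with edgeR 4.0.16 in R 4.3.3 (filterByExpr, TMM, robust quasi-likelihood), which left 13594 genes. Adjusted p-values are Benjamini-Hochberg over these genes, with a threshold of 0.05. Standard errors are the size of the log2 fold change divided by the square root of its F statistic. The same fit gave WSD against CTRL and the difference between both effects. Log2 CPM for the principal components used a prior count of 2. Alternatives used limma 3.58.1 and DESeq2 1.42.0. The fit was tested on simulated data with 200 changed genes.

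Named genes are the 12 highest and 12 lowest changes among called protein-coding genes with a mean of at least 2 CPM and no overlap between groups, and from each of 47 gene lists the first 2 members and the 4 called members with the smallest p. For the difference between both effects they are the 6 highest and 6 lowest called. The text quotes a selection of them; 13 genes outside this rule were chosen after their values were seen: Ifit3, Acta2, Tagln, Hmgcs1, Muc1, Cxcl13, Asns, Dbp, Fn1, Col27a1, Plin2, Slco1a1 and Grn. Some named genes are not reported here. The comparison and the lists were chosen with earlier results of these data known. Of 1108 list members 4 matched no gene. Gene families with near-identical copies (Mup, Serpina1, Hsd3b, Cyp2a to Cyp2d, Gsta, Gstp, Oas1, Ifit3, Slco1a) may share reads.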

Additional observations from a re-analysis of the deposited data

Results flagged for a closer look

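In 314 groups of 4 or 5 libraries, 22 had a highest or lowest library farther from the others than Dixon's limit allows. Chance alone gives this in about 1 of 20 groups that were chosen beforehand. Here 13 of the genes were chosen after their values were seen, among them Acta2, Tagln, Muc1, Cxcl13, Col27a1 and Grn. The count of 22 is therefore not a test.

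WSD+beta-Glucan replicate 2 was far above its group for Acta2 (56 CPM against 0.926 to 4.45 in the other 3), Tagln (47.9 against 3.96 to 6.2), Krt19 (42.1 against 1.18 to 5.5) and Muc1 (34.2 against 1.26 to 6.01). The same library was highest for Hsd3b5 (3.1 CPM against 0 to 0.519) and lowest for Psmb9 (24.2 against 28.1 to 28.6). Replicate 4 of that group was lowest for Ccr2 (2.61 CPM against 4.56 to 4.67) and Ccl2 (1.43 against 2.47 to 2.68), and highest for Ppara (71.2 against 41.6 to 45.1) and Cyp7a1 (145 against 35 to 47.1). Replicate 3 was highest for Cd3e (0.952 CPM against 0.8 to 0.823), Ccl5 (9.13 against 2.96 to 3.41) and Col27a1 (18.2 against 12.5 to 13.2), and replicate 1 was lowest for Grn (311 against 361 to 371).

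Among the CTRL+beta-Glucan libraries, replicate 1 was highest for Fam222a (12 CPM against 8.49 to 9.49), replicate 2 for Trem2 (1.12 against 0.247 to 0.433), and replicate 3 for Cfd (1.86 against 0.289 to 0.51) and Cxcl13 (6.79 against 0.89 to 2.6). Replicate 4 was highest for Scd1 (4318 CPM against 2918 to 3186) and lowest for Ccnd1 (6.58 against 8.3 to 8.65) and Asl (1207 against 1543 to 1679). Replicate 5 was lowest for Stab2 (20.7 CPM against 27.8 to 29.5).

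The WSD effects with and without beta-glucan differed for Unc93b1 by log2 -0.76, as tested by the interaction term.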

How the results depend on the processing

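With library totals in place of TMM, 5137 genes rose and 385 fell, against 2593 and 2063. The count of lower genes was 1240 without the libraries 37, 39 and 40 and 1330 when the 9 libraries were fitted alone, with fewer samples in both. Leaving out each of the 19 libraries in turn gave 2145 to 2633 higher and 1536 to 2087 lower genes, and the other alternatives 2434 to 2736 and 1735 to 2254. For the difference between both WSD effects, 1 call became 139 with DESeq2, 3 with library totals, 2 without the libraries 37, 39 and 40 and 2 with these as a term. Leaving out each library gave 0 to 81 calls, with 81 without CTRL+beta-Glucan replicate 5 and at most 2 otherwise; the cause was not tested.

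Of 157 quoted genes 142 were called. Of these 114 were called in every one of 29 alternatives that tested them and 28 were lost in at least 1. Another 7 were called only in some alternatives and 8 in none. The sign turned for Timd4 without WSD+beta-Glucan replicate 1 (log2 -0.06; -0.06 to 0.62 over the libraries left out) and for Ppara without CTRL+beta-Glucan replicate 5 (0.02; -0.41 to 0.02). With library totals it turned for Ppara (0.08), Cpt1a (0.03), Nr1i3 (0.07) and Plin2 (0.12). No paired analysis was possible because the labels carry no replicate numbers. Genes near 1 CPM rest on few reads, and differences between them may not be detectable at this depth. The alternative scalings cannot show total RNA per cell.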
